A study of Mus musculus with 13 samples.

Results

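The creatine kinases and the genes that make and import creatine were followed in MP EPO-GEMM ovarian tumors and normal mouse ovaries. They comprised 7 of the 53465 genes in the deposited table, matched by gene symbol: Ckm, Ckb, Ckmt1, Ckmt2, Gatm, Gamt and Slc6a8. Ckm was selected on its TPM in MP tumors against WT ovaries in these same data, among the genes that rose furthest, so its difference between tumors and ovaries is described without a test. The remaining 6 genes were included for their place in the pathway.

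RNA-seq was performed on bulk tissue of 3 wild-type (WT) ovaries and 10 MP tumors from C57BL/6 mice, all non-treated. MP tumors arose after the ovary of 8- to 12-wk-old females was electroporated with plasmids for a MYC transposon, the Sleeping Beauty transposase, Cas9 and an sgRNA against Trp53. These tumors carry the label genotype Myc;p53-/- and were collected at end point. The labels repeat that protocol text for the WT ovaries and give them no other age. Electroporation does not choose a cell type, and each library mixes tumor cells with the other cells of the tissue, so fewer cells of a type cannot be told apart from less RNA per cell.

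Creatine is made in 2 steps. Gatm, a mitochondrial enzyme, joins arginine and glycine to guanidinoacetate, and Gamt, a cytosolic enzyme, methylates that product to creatine. Slc6a8 is the transporter that brings creatine into cells from blood. Creatine kinases then move phosphate between ATP and creatine, so that phosphocreatine buffers ATP where demand is high. The cytosolic kinases are the muscle-type Ckm, abundant in skeletal and heart muscle, and the brain-type Ckb, found in brain, smooth muscle and many epithelia. The mitochondrial kinases are the ubiquitous Ckmt1 and the sarcomeric Ckmt2 of muscle.

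The promoter sequences of the 2 cytosolic kinases are shown because their tumor levels lay on opposite sides of those in the ovary. Each line gives the 250 bases before the RefSeq transcription start on GRCm38.p6, read 5′ to 3′ on the strand of the gene. Capitals mark matches to CANNTG, the E-box letters bound by many basic helix-loop-helix factors, and to the TATA-like letters TATANA, on either strand and with overlapping matches joined.
Ckm, chr7:19410844-19411093 (+): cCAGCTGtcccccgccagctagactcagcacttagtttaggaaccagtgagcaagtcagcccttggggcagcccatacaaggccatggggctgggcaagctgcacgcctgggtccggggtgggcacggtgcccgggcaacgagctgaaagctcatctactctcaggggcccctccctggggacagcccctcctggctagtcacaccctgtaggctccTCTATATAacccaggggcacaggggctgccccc
Ckb, chr12:111672339-111672588 (-): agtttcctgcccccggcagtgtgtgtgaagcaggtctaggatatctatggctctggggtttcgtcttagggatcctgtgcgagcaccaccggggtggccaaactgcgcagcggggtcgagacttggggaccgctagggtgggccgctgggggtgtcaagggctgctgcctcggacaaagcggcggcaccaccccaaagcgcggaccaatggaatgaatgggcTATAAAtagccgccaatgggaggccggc

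The Ckm window held an E-box match at its far end, from 249 to 244 bases before the start. TATA-like matches overlapped between 33 and 26 bases before the start in Ckm and lay from 28 to 23 bases before it in Ckb, whose window had no E-box match. Among 32817 RefSeq promoter windows of the same length, 66.2% held an E-box and 22.6% a TATA-like match. The E-box form preferred by MYC, CACGTG, was in 6.02% of all windows and in 0 of the 7 windows found for 6 of the 7 genes. Slc6a8 had no entry. These matches describe letters in a window, and some GENCODE M21 transcripts of Ckm start before the RefSeq start.

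Values are TPM, a measure of transcript abundance that corrects for gene length and has the same sum in every library, so levels of different genes can be compared within a library. Read counts per gene could be worked back from the table. They summed to 31445004 to 64013840 per WT ovary (median 50522020) and to 3892690 to 19906507 per MP tumor (median 8543975), so low values are less precise in tumors. The libraries fell into 3 sets by a number that they share in their names, and what this number stands for is not stated in the labels. Set 1 held every WT ovary and MP tumors 1 to 3, set 2 held MP tumors 4 to 6 and set 3 held MP tumors 7 to 10. Trp53 RNA was 80.7 to 85.4 TPM in WT ovaries and 4.3 to 25.99 TPM in 9 MP tumors, but 187 TPM in MP tumor 10. Leaving out MP tumor 10 moved no gene of the family across the threshold between tumors and ovaries. Mouse Myc RNA was 126 to 129 TPM in WT ovaries and 7.09 to 419 TPM in MP tumors, below every WT ovary in 6 of 10. Whether reads of the MYC transposon were counted under Myc is not given in the sources used here. In MP tumor 2, the 10 most abundant genes took 55.1% of all TPM, against at most 20.6% in any other library. With a fixed sum, this leaves less TPM for its other genes. Its Ckb, Gamt and summed kinase TPM were the lowest of the tumors, and the part of this in them was not tested.

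The make-up of creatine kinase RNA differed between the groups. WT ovaries expressed Ckb almost alone, whereas Ckm was the leading kinase RNA in 7 of 10 MP tumors. In 1 of these, MP tumor 2, Ckm and Ckb were not told apart by counting error, with 63 and 58 reads. Ckb made up 98.2%, 97.2% and 94.97% of the summed TPM of the 4 kinases in WT ovaries 1, 2 and 3. Its share in MP tumors ranged from 2.85% in MP tumor 7 to 96.2% in MP tumor 9, with a median of 34.1%. The share of Ckm was at most 0.325% in a WT ovary and ranged from 2.83% to 96.7% in MP tumors, with a median of 65.4%. Ckb remained the leading kinase in MP tumors 5, 8 and 9, where Ckm held 10.3%, 45.8% and 2.83%. Since the change in Ckm chose the genes, these shares are given as a description.

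**Figure D1:**
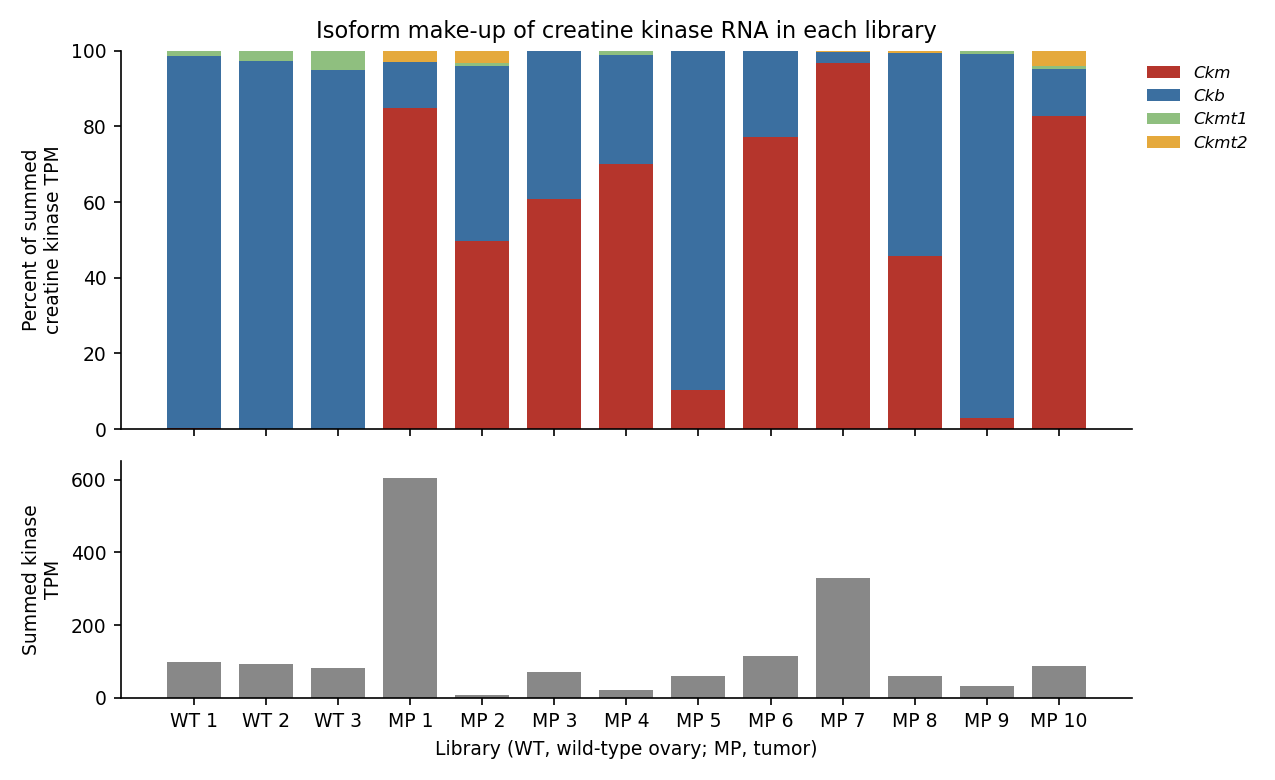
Upper bars give the percent of summed TPM of the 4 creatine kinases held by each isoform in each library, and lower bars give that summed TPM. Ckb fills 94.97 to 98.2% of the 3 WT bars, and Ckm is the largest part of 7 of the 10 MP bars.

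The summed level of the 4 kinases did not move one way. It was 81.5 to 99.6 TPM in WT ovaries and 7.81 to 603 TPM in MP tumors, with a median of 65.6 TPM. MP tumors 1, 6 and 7 lay above every WT ovary, at 603, 116 and 331 TPM. MP tumor 10 lay among the WT ovaries, at 88.8 TPM, and the other 6 tumors lay below them.

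Ckm (ENSMUSG00000030399, chromosome 7, 19404776 to 19422841, plus strand, GRCm38) encodes the muscle-type cytosolic kinase. Its level was 0.324, 0.112 and 0.0176 TPM in WT ovaries 1, 2 and 3, from 14, 3 and 1 reads. In MP tumors it ranged from 0.904 TPM in MP tumor 9 to 512 TPM in MP tumor 1, with a median of 35.05 TPM. All 10 tumors lay above every WT ovary, which held for 3.02% of the 17277 genes tested, and the median tumor lay 314 times above the median ovary. That ratio rests on few ovary reads, and was 542, 205 and 161 without WT ovary 1, 2 or 3 and 244 to 383 without any 1 tumor.

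That separation was narrow at its lower edge. MP tumor 9 had 7 reads of Ckm, and its level was 2.79 times that of WT ovary 1, with a 95% interval for counting error of 0.954 to 7.40. On the log2(TPM + 1) scale, the mean of the tumors was 4.85 above that of the ovaries (SE, 1.35), the second largest rise of all genes tested. This scale understates the change of a gene that is nearly absent in 1 group, and limma-voom on the reads gave a log2 difference of 8.60. Within library set 1 the difference was 5.39.

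Ckm also varied more between tumors than nearly any other gene. The 10 tumors spanned a 566-fold range, and MP tumors 1 and 7 stood highest at 512 and 320 TPM. MP tumors 6, 10 and 3 followed at 89.7, 73.5 and 42.8 TPM, then MP tumors 8 and 4 at 27.3 and 15.7 TPM. MP tumors 5, 2 and 9 were lowest, at 6.24, 3.89 and 0.904 TPM. The SD of log2(TPM + 1) over tumors was 2.59 for Ckm against a median of 0.862 for all genes tested, and it exceeded that of 99.7% of them. High and low tumors occurred in sets 1 and 3 alike.

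**Figure D2:**
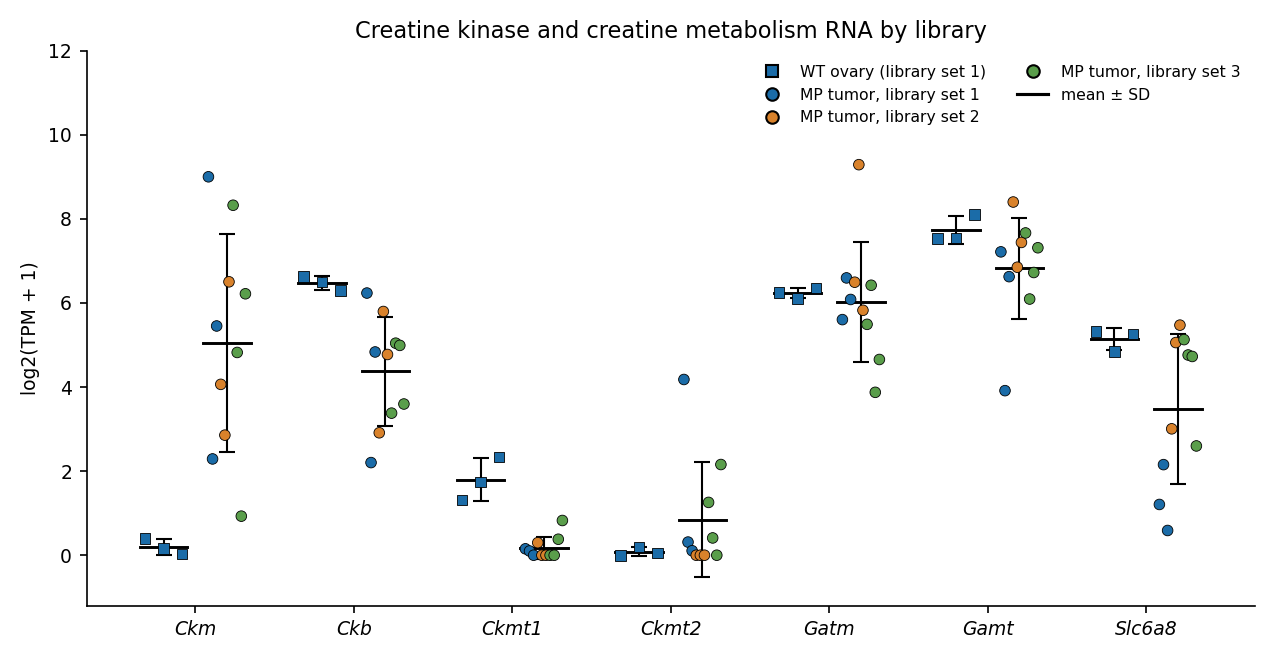
Points give log2(TPM + 1) of each gene in each library, as squares for WT ovaries and circles for MP tumors, coloured by library set, with the mean and SD of each group. All 10 MP tumors lie above the ovaries for Ckm and below them for Ckb and Ckmt1, and the set 1 tumors are the lowest 3 for Slc6a8.

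Ckb (ENSMUSG00000001270, chromosome 12, 111669361 to 111672338, minus strand) encodes the brain-type cytosolic kinase and was the dominant kinase RNA of the normal ovary. It was present at 97.8, 89.2 and 77.4 TPM in WT ovaries 1, 2 and 3. In MP tumors it ranged from 3.61 TPM in MP tumor 2 to 74.4 TPM in MP tumor 1, with a median of 26.96 TPM. Each of the 10 tumors lay below every WT ovary, which held for 16.4% of genes tested. The log2 difference was -2.09 (SE, 0.71), which missed the threshold (limma, Benjamini-Hochberg adjusted P = 0.0555), against a median of -0.58 over all genes.

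Single libraries decided this call. The adjusted P value by limma was 0.0326, 0.0330 and 0.0488 without MP tumor 1, 5 or 9, and 0.0277 by limma-voom on the reads, which called 23.4% of all genes lower. It was 0.169 to 0.199 without any 1 WT ovary and 0.166 with median-of-ratios scaling, where the difference was -1.40. Within library set 1 the difference was -2.05 (limma adjusted P = 0.0770), against a median of -1.44 over all genes. Genes on chromosome 12 had a median difference of -0.71.

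The mitochondrial kinases were low in both tissues. Ckmt1 (ENSMUSG00000000308, chromosome 2, 121357714 to 121363737, plus strand) encodes the ubiquitous form, and was at 1.48, 2.35 and 4.05 TPM in WT ovaries 1, 2 and 3. In MP tumors it ranged from 0 to 0.773 TPM with a median of 0.036 TPM, and the 10 tumors together held 9 reads of it. All tumors lay below every WT ovary and 5 were at 0, which at 3 reads allows up to 0.137 to 0.950 TPM in these libraries. Ckmt1 fell by 1.62 on the log2 scale (SE, 0.26; limma adjusted P = 0.000444). The size depends on the scale for a gene this low, and the difference was -3.88 by limma-voom, -3.79 with a pseudocount of 0.1 and -0.98 with quantile normalization.

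Ckmt1 was the single gene of the 6 tested that passed the threshold, and 14.3% of all genes tested were called lower. It entered the test through the WT ovaries alone, since no tumor reached 1 TPM, so it had to differ. Without any 1 WT ovary it no longer passed the filter on low values. Within library set 1 the difference was -1.71 (limma adjusted P = 0.000515). That comparison called 62.4% of all genes lower and had a median difference of -1.44 over all genes. Strc, which overlaps the end of Ckmt1 on the other strand, was at most 0.411 TPM in every library, and Ppip5k1, the nearest tested gene before it, fell by 1.83 (limma adjusted P = 0.0152).

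Ckmt2 (ENSMUSG00000021622, chromosome 13, 91853387 to 91876885, minus strand) encodes the sarcomeric mitochondrial kinase that works beside Ckm in muscle. WT ovaries 1, 2 and 3 held 0, 0.146 and 0.0345 TPM, from 3 reads in all. MP tumors ranged from 0 to 17.1 TPM with a median of 0.16 TPM, and 4 of them were at 0. MP tumors 1, 10 and 7 stood above the rest, at 17.1, 3.46 and 1.39 TPM, and the groups overlapped.

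The log2 difference of Ckmt2 was 0.76 (SE, 0.72; limma adjusted P = 0.465). Of the 6 genes tested, 0 were called higher by limma, which called 2.51% of all genes tested higher, and 0 by limma-voom on the reads, which called 10.9% of them higher. Without adjustment, 0 had a P value under 0.05 and a higher level by limma, and 1, Ckmt2, did so by limma-voom, with a log2 difference of 3.35. Ckmt2 passed the filter through 3 tumors alone, with no WT ovary at 1 TPM, so this comparison supports no rise.

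The enzymes of creatine synthesis lay on both sides of their levels in the normal ovary. Gatm (ENSMUSG00000027199, chromosome 2, 122594467 to 122611303, minus strand), which catalyses the first step, was at 75.2, 68.1 and 81.0 TPM in WT ovaries 1, 2 and 3. In MP tumors it ranged from 13.7 TPM in MP tumor 9 to 625 TPM in MP tumor 5, with a median of 61.3 TPM. Of the 10 tumors, 4 lay above and 6 below every WT ovary. The log2 difference was -0.21 (SE, 0.76; limma adjusted P = 0.864), and its sign turned under other scalings, to 0.51 with median-of-ratios scaling and 0.14 with quantile normalization.

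Gamt (ENSMUSG00000020150, chromosome 10, 80258151 to 80261012, minus strand), which catalyses the second step, was the most abundant gene of the family in WT ovaries. Its levels there were 184, 186 and 276 TPM in WT ovaries 1, 2 and 3. MP tumors ranged from 14.1 TPM in MP tumor 2 to 337 TPM in MP tumor 4, with a median of 131 TPM, and 8 lay below every WT ovary while 1 lay above. The log2 difference was -0.91 (SE, 0.65; limma adjusted P = 0.337). It ranged from -1.81 to -0.19 over 23 alternatives and from -1.08 to -0.58 without 1 library. Within library set 1 it was -1.81 (limma adjusted P = 0.0726), against a median of -1.44 over all genes. With library set as a covariate the same difference passed (limma adjusted P = 0.0428). That fit called 49.4% of all genes lower and had a median of -1.19 over all genes. Genes on chromosome 10 had a median difference of -0.71.

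Slc6a8 (ENSMUSG00000019558, chromosome X, 73673150 to 73682502, plus strand), the creatine transporter, was at 39.1, 27.7 and 37.5 TPM in WT ovaries 1, 2 and 3. MP tumors ranged from 0.504 TPM in MP tumor 3 to 43.4 TPM in MP tumor 6, with a median of 16.3 TPM, and 7 of 10 lay below every WT ovary. Over all libraries the log2 difference was -1.67 (SE, 0.95; limma adjusted P = 0.230). It ranged from -3.83 to -0.99 over 23 alternatives and from -1.90 to -1.35 without 1 library.

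This gene split by library set. Tumors of set 1 held 0.504 to 3.45 TPM and tumors of sets 2 and 3 held 5.06 to 43.4 TPM, without overlap. Between these tumors the log2 difference was -3.08 (SE, 0.63; limma adjusted P = 0.00240), while 33.6% of 15833 genes tested were lower in set 1, 1.42% were higher and the median of all genes was -0.95. With quantile normalization the difference was -1.79 and did not pass (limma adjusted P = 0.0963). Within set 1, tumors lay below WT ovaries by -3.83 on the log2 scale (limma adjusted P = 7.96e-05), in a comparison that called 62.4% of genes lower. The 3 tumors of set 1 were among the 4 most deeply sequenced, and the part of library set in the level of Slc6a8 was not tested further.

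No other gene of the family passed this comparison. In the same comparison of set 1 with sets 2 and 3, Ckm differed by 0.76 (SE, 1.56), Ckb by 0.07 (SE, 0.79), Ckmt2 by 0.99 (SE, 0.79), Gatm by 0.09 (SE, 0.87) and Gamt by -1.29 (SE, 0.63). Limma adjusted P values of these were 0.126 to 0.954, and Ckmt1 was too low in tumors to be tested. Without MP tumor 1, Gamt passed with a difference of -1.94 (limma adjusted P = 0.0437). Over 16 alternatives its difference ranged from -1.94 to -0.0009, and without 1 library from -1.94 to -0.29.

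**Figure D3:**
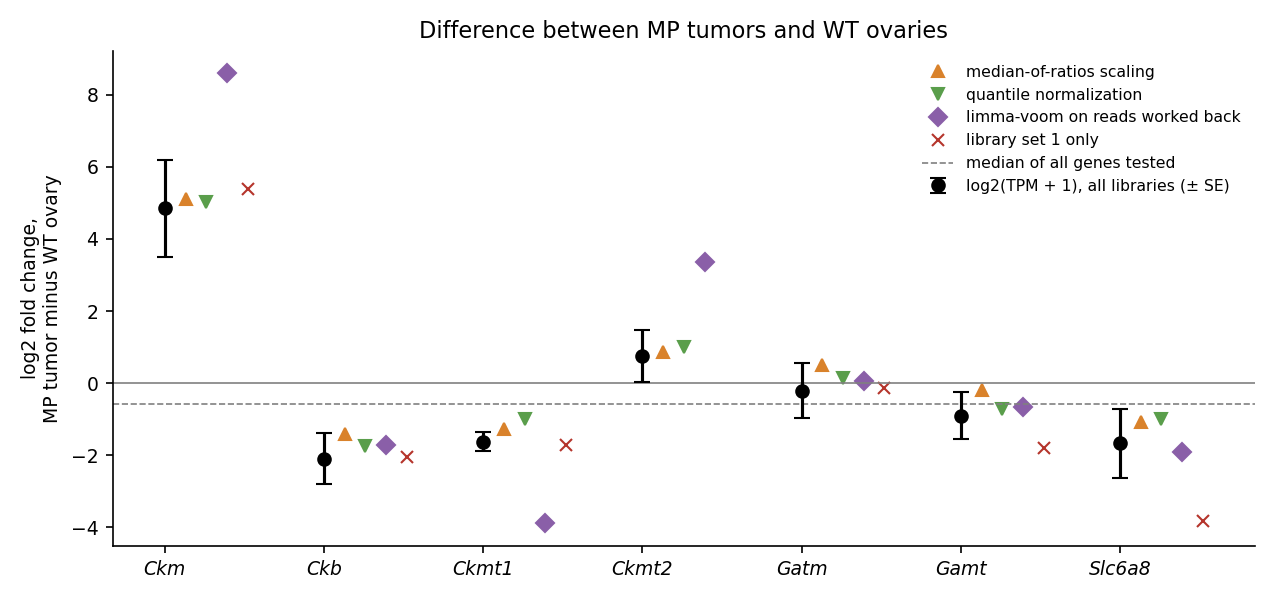
Black points give the log2 difference (MP tumor minus WT ovary) of each gene with its SE, coloured symbols give the same difference under 3 other scalings or tests and within library set 1, and the dashed line is the median of all genes tested. Ckm lies between 4.85 and 8.60 in the cases shown, Ckb and Ckmt1 lie below 0 in each, and Gatm lies on both sides of 0.

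In order of mean level in the normal ovary, Gamt stood above Ckb and Gatm, whose ranges overlapped, then Slc6a8 and Ckmt1, and last Ckm and Ckmt2, whose ranges overlapped. In order of the tumor median, Gamt and Gatm came first, at 131 and 61.3 TPM. Ckm (35.05 TPM) and Ckb (26.96 TPM) came next with overlapping ranges, followed by Slc6a8 (16.3 TPM), and both mitochondrial kinases were under 0.2 TPM. Ckm was thus near the bottom of the list in ovaries and in its middle in tumors. All 7 genes passed the filter on low values, but Ckm and Ckmt2 did so through the tumors alone.

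Across the 10 tumors, Ckm was not shown to follow another gene of the family. With Ckmt2, Pearson's r was 0.697 (permutation P = 0.0176, adjusted over 6 pairs 0.106) and Spearman's rho was 0.619 (permutation P = 0.0647, adjusted 0.388). Without the 2 tumors farthest from the median of Ckm, r was 0.519. With values centred within library sets, r was 0.707 (adjusted permutation P = 0.0942), and without MP tumor 1 it was 0.546. Without MP tumor 6 or MP tumor 10 the adjusted permutation P value of r was 0.0491 or 0.0471, so single libraries decided this call. The remaining 5 pairs had r between -0.184 and 0.452, and the adjusted permutation P values of r were 0.577 to 0.813. For the pair with Gatm, Spearman's rho was -0.358 over all tumors (permutation P = 0.315, adjusted 0.630) and -0.867 without MP tumor 9 (permutation P = 0.00470, adjusted 0.0282), so this pair also turned on a single library. With Gamt, r was 0.452 over all tumors and 0.676 with values centred within library sets (adjusted permutation P = 0.0942). After centring, values were still permuted across sets, so these P values, here and for Ckmt2, are approximate and can be too small. Ckm and Ckb, the cytosolic kinases, had an r of 0.184.

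Markers of muscle were read beside Ckm, because Ckm and Ckmt2 are muscle genes. Of 30 skeletal muscle genes, 20 passed the filter, 1 was called higher (Eno3) and 1 lower (Pygm), against 2.51% and 14.3% of all genes tested. Of the 20, 7 had no WT ovary at 1 TPM and passed the filter through the tumors alone, which raises the median log2 difference of the list, 0.76 against -0.58 for all genes. Eno3, the muscle enolase of glycolysis, was at 15.4 ± 1.2 TPM in 3 ovaries and 177 ± 326 TPM in 10 tumors (mean ± SD) and rose by 2.42 on the log2 scale (limma adjusted P = 0.0462). MP tumor 1 held 1098 TPM of it, and without that tumor the mean was 74.2 ± 39.3 TPM and the log2 difference 2.02 (limma adjusted P = 0.0106). Pygm, the muscle glycogen phosphorylase, was at 20.9 ± 7.4 TPM in ovaries and 3.21 ± 3.37 TPM in tumors and fell by 2.71 on the log2 scale (limma adjusted P = 0.0108). Eno3 lost the call without any 1 WT ovary or without MP tumor 3, 4, 6, 7, 8 or 10 (limma adjusted P = 0.0520 to 0.168), and also with a pseudocount of 0.1 (0.0532), without a filter (0.0681) and with the replicate block (0.0909). Pygm lost it without any 1 WT ovary (limma adjusted P = 0.0527 to 0.0974) and with a pseudocount of 0.1 (0.0542). The myosin light chain Mylpf and the troponin Tnnt1 were the other most abundant genes of the list, with log2 differences of 1.42 and 2.19 that did not pass (limma adjusted P = 0.420 and 0.159).

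The summed TPM of the list was 65.3 to 82.2 in WT ovaries and 60.3 to 3037 in MP tumors, with a median of 224. MP tumor 1, the tumor with the most Ckm and Ckmt2, also had the highest sum. In it, 28 of the 30 skeletal muscle genes lay above every WT ovary and 0 were at 0 TPM. The skeletal actin Acta1 was at 150 TPM there, the fast troponin Tnnt3 at 92.6 TPM and the myogenic regulator Myog at 63.5 TPM. MP tumor 8 had 24 of the 30 above every WT ovary, with Acta1 at 48.2 TPM and the fast myosin Myh4 at 14.3 TPM, although its Ckm was only 27.3 TPM.

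MP tumor 7 was different. It had the second highest Ckm, 320 TPM from 2256 reads, while Acta1, Tnnt3 and Myh4 were at 0, and 12 of the 30 skeletal muscle genes were at 0. A count of 0 allows up to 1.24 TPM for a gene of 1 kb in that library. Zeros were not particular to MP tumor 7, since 13 of the 30 genes were at 0 in MP tumor 2. Acta1 was also at 0 in MP tumors 2 and 5. The muscle genes that MP tumor 7 did express above the ovaries included Mylpf (97.6 TPM), the mitochondrial subunit Cox6a2 (66.2 TPM) and the actinin Actn2 (48.8 TPM). Eno3 (127 TPM) and Tnnt1 (18.0 TPM) were also above the ovaries there, as was the myogenic regulator Mymk (5.19 TPM, 19 reads). MP tumors 6, 10 and 3, with Ckm at 89.7, 73.5 and 42.8 TPM, had Acta1 at 0.231, 1.26 and 0.223 TPM. Other genes of the list were high in some of them. Tnnt1 was at 190 TPM and the fast troponin Tnni2 at 49.1 TPM in MP tumor 6, where 11 of the 30 genes lay above every WT ovary. In MP tumor 10, 18 of the 30 lay above every WT ovary, with Cox6a2 at 33.1 TPM and the titin cap Tcap at 29.8 TPM, and in MP tumor 3, 7 of the 30 did, with Tnnt1 at 67.4 TPM. The count was 17 in MP tumor 5, 11 in MP tumors 4 and 9, 7 in MP tumor 7 and 5 in MP tumor 2. It depends on depth, since 1 read can lift a gene above the ovaries in a shallow library, and 11 of the 17 genes in MP tumor 5 and 6 of the 18 in MP tumor 10 had at most 5 reads. Summed TPM of the list ordered the tumors much as Ckm did (Spearman's rho = 0.842), but the number of genes above every WT ovary did not (rho = 0.295). From the highest Ckm to the lowest, the summed TPM was 3037, 378, 425, 284, 164, 445, 165, 147, 61.98 and 60.3 TPM. Eno3 alone held 1098 TPM of the sum in MP tumor 1 and 39.0 TPM in MP tumor 2, but 66.1 TPM in MP tumor 8. Without MP tumors 1 and 8, the log2 difference of Ckm was 4.39.

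**Figure D4:**
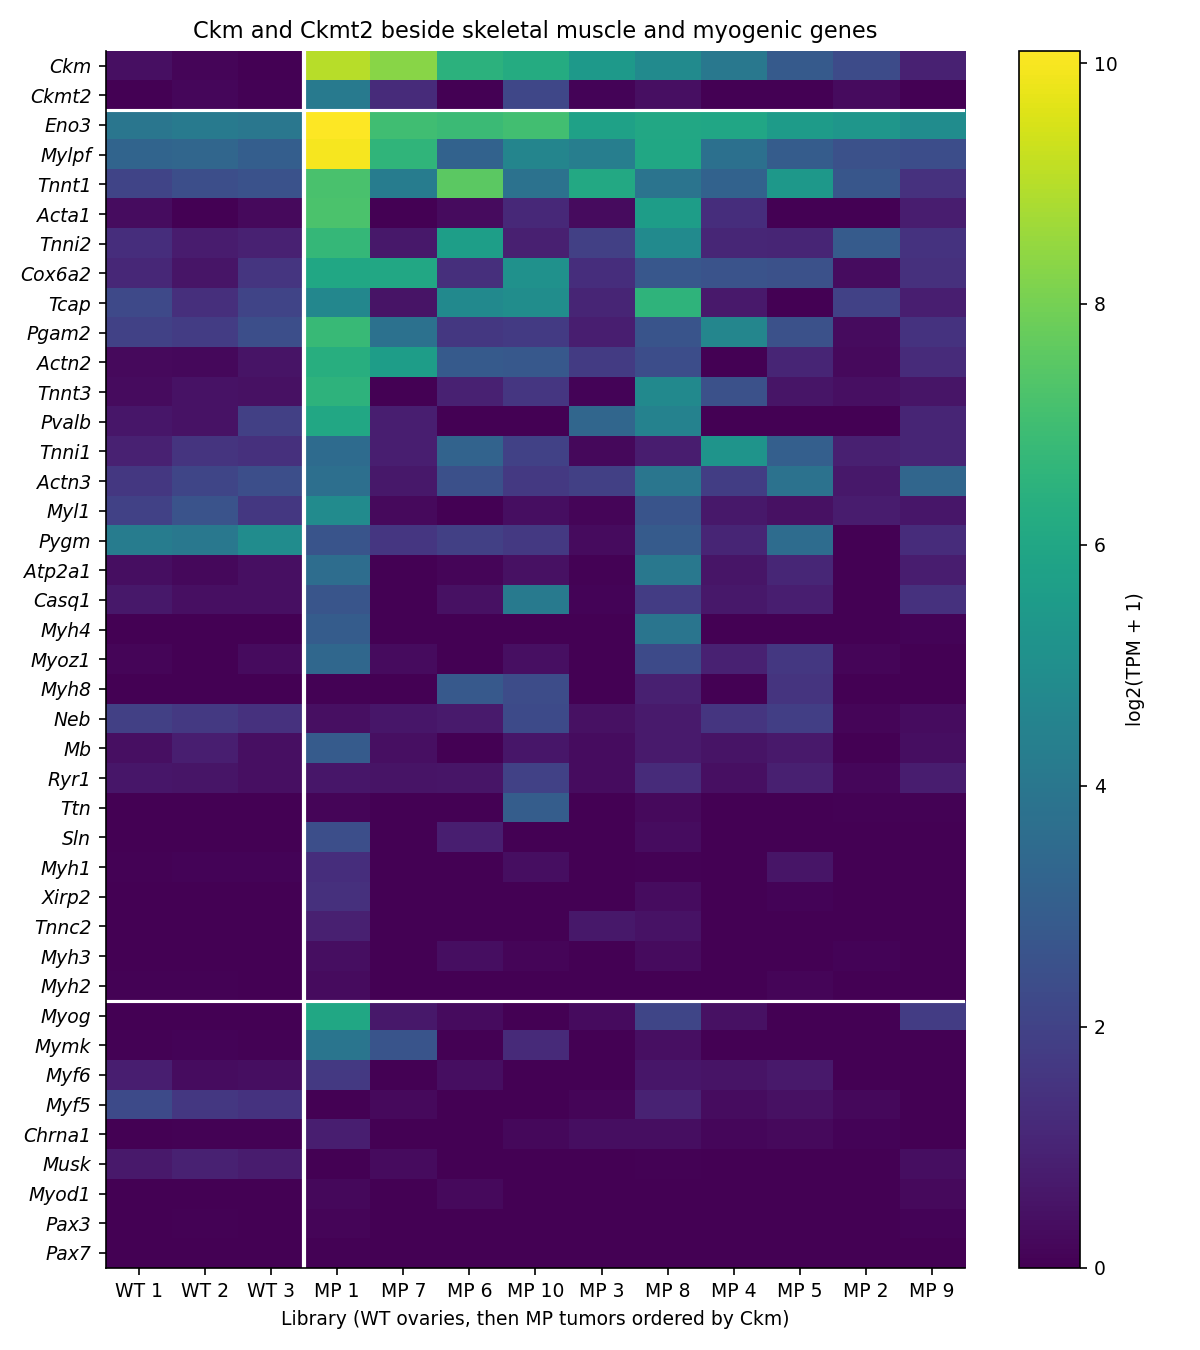
Colours give log2(TPM + 1) of Ckm and Ckmt2 (top), 30 skeletal muscle genes (middle) and 9 myogenic regulators (bottom) in each library, with MP tumors ordered by Ckm. MP tumors 1 and 8 express most of the skeletal muscle genes, whereas MP tumor 7 has high Ckm with Acta1, Tnnt3 and Myh4 at 0.

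Of 9 myogenic regulators, 3 passed the filter and 1, Myf5, was called lower, against 14.3% of all genes tested. Myf5 had to differ, since no tumor reached 1 TPM and it entered the test through the WT ovaries alone. Their summed TPM was 2.87 to 5.39 in WT ovaries and 0.255 to 6.16 in 9 MP tumors, with 81.0 in MP tumor 1. Of 10 cardiac muscle genes, 5 passed the filter and 0 were called by limma, also without adjustment, while limma-voom called 1 higher, against 10.9% of all genes. The most abundant, the cardiac troponin Tnni3, already averaged 113 ± 11 TPM in WT ovaries, against 316 ± 236 TPM in MP tumors.

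Most marker genes of the cell types of the normal ovary were lower in the tumors. All 7 granulosa cell genes, 4 of 5 theca and luteal genes, all 8 oocyte genes and 6 of 9 smooth muscle genes were called lower (limma adjusted P under 0.05 each), against 14.3% of all genes tested. Of these, the oocyte genes Zp1, Zp2, Bmp15, Figla and Nlrp5 and the granulosa cell gene Cyp19a1 had no tumor at 1 TPM, passed the filter through the WT ovaries alone and had to differ. At least 1 TPM in 3 or more tumors was reached by 4 of the granulosa cell, 4 of the theca and luteal, 1 of the oocyte and 8 of the smooth muscle genes. Without any 1 WT ovary, the calls were 4 of 6 granulosa cell, 4 of 5 theca and luteal, 3 of 3 oocyte and 3 to 4 of 9 smooth muscle genes tested, against 3.61% to 4.06% of all genes. Median log2 differences of these lists were -5.16, -8.60, -4.79 and -3.23. The steroidogenic genes led by Hsd3b1 summed to 25024 to 28130 TPM in WT ovaries and 7.44 to 824 TPM in MP tumors. Smooth muscle genes summed to 1853 to 2215 TPM in WT ovaries and 65.8 to 878 TPM in 9 MP tumors, but MP tumor 5 lay above every ovary at 2464 TPM. Cyp17a1, Smtn, Myl9 and Synpo2 did not pass. Every tumor lay below the WT ovaries in Ckb and Ckmt1 too, and the part of tissue make-up in their levels was not tested.

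Among epithelial and HGSOC markers, 5 of 9 tested were called lower (Krt7, Epcam, Cdh1, Muc16 and Msln), against 14.3% of all genes tested. Without any 1 WT ovary, 2 of 9 were, against 3.61% to 4.06% of all genes. Cdh1 and Muc16 reached 1 TPM in fewer than 3 tumors and passed the filter only with the WT ovaries. Krt8 and Krt18 ranged from 0.590 to 425 TPM and from 2.06 to 496 TPM in MP tumors. Of 5 neural genes tested and 4 leukocyte genes tested, 0 were called by limma, against 14.3% of all genes called lower and 2.51% higher. Without adjustment 1 neural and 2 leukocyte genes were lower at P under 0.05, and limma-voom called 2 and 1 lower, against 23.4% of all genes. Within library set 1, limma called 2 of 3 neural and 4 of 4 leukocyte genes lower, against 62.4% of all genes. It called 2 of 5 and 3 of 4 lower with library set as covariate, against 49.4%. With the replicate block it called 4 of 5 and 4 of 4 lower, against 56.7%. The 3 lists had median log2 differences of -2.37, -0.28 and -0.83.

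Of 20 genes for arginine, glycine and methyl group supply, which feed creatine synthesis, 3 rose and 1 fell, while 2.51% of all genes tested were called higher and 14.3% lower. The 1 that fell passed the filter through the WT ovaries alone, so it had to differ. The list's median log2 difference was 0.19, against -0.58 for all genes. Shmt1, the cytosolic enzyme that makes glycine from serine, went from 28.4 ± 4.9 TPM in ovaries to 158 ± 107 TPM in tumors (mean ± SD, n = 3 and 10) and rose by 2.16 on the log2 scale (limma adjusted P = 0.0137). Ahcy, which clears the S-adenosylhomocysteine left by methylation, went from 41.7 ± 5.5 to 127 ± 59 TPM and rose by 1.45 (limma adjusted P = 0.0262). In both, all 10 tumors lay above every WT ovary, which held for 3.02% of all genes tested and for other genes of this list too. Without any 1 WT ovary, Ahcy and Shmt1 lost the call (limma adjusted P = 0.0617 to 0.140). Ahcy also lost it with the replicate block (0.0538) and without MP tumors 1 and 8 (0.0671).

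Of 22 genes of other phosphotransfer and ATP shuttling systems, 20 passed the filter, with a median log2 difference of 0.47. Nme4, a mitochondrial nucleoside diphosphate kinase, averaged 26.6 ± 1.4 TPM in ovaries and 195 ± 136 TPM in tumors and rose by 2.54 on the log2 scale (limma adjusted P = 0.00494), and remained called in each alternative run. Ak1, the cytosolic adenylate kinase of muscle and other tissues, averaged 46.5 ± 31.1 and 7.90 ± 7.59 TPM and fell by 2.80 (limma adjusted P = 0.0310). Ak1 lost the call with median-of-ratios scaling, a pseudocount of 0.1, the replicate block or any 1 WT ovary left out (limma adjusted P = 0.0615 to 0.198). The ADP/ATP carriers Slc25a4 and Slc25a5 differed by 0.45 and 0.50 (limma adjusted P = 0.367 and 0.389). Nme3 was listed at 0 in every library and Nme2 is a near copy of Nme1, so their counts are uncertain.

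Since the median of all genes lay at -0.58, differences relative to it were also read. They were 5.43 for Ckm, -1.52 for Ckb, -1.04 for Ckmt1, 1.34 for Ckmt2, 0.37 for Gatm, -0.33 for Gamt and -1.10 for Slc6a8. With median-of-ratios scaling the median of all genes was -0.02 and the calls over all genes were 1276 higher and 1896 lower, in place of 433 and 2463. Under that scaling Ckb differed by -1.40.

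Ckm lies in a dense part of chromosome 7, and neither neighbouring gene passed the test. Klc3, 0.672 kb before it, averaged 2.40 ± 0.76 TPM in ovaries and 6.03 ± 10.9 TPM in tumors, a log2 difference of 0.11 (limma adjusted P = 0.938). Mark4, 1.93 kb after it, was at 50.5 ± 0.2 and 25.8 ± 18.5 TPM, a difference of -1.50 (limma adjusted P = 0.231). The antisense gene A930016O22Rik overlaps Ckm, and was at 0 TPM in WT ovaries and at 0 to 1.25 TPM in MP tumors. The counting is not stated to use strand, so reads of Ckm and of this gene cannot be told apart where they overlap.

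Of 10925 genes with a mean of at least 5 TPM in tumors, those ordered most like Ckm over the 10 tumors were Tmem97 (Spearman's rho = 0.952), and G0s2, Mrps31, Ntpcr and Spag4 (0.939 each). Those most like Ckb were Lst1 (0.939), Pard6a (0.915), the actinin Actn3 (0.903), Ccdc25 (0.867) and Abcg2 (0.855). These are the best of many correlations over the same 10 libraries and are given as a description. The muscle enolase Eno3 came next after the 5 most like Ckm (rho = 0.927). Of the 30 skeletal muscle genes, 13 were abundant enough to be ordered, with rho between -0.042 and 0.927 and a median of 0.304, against -0.042 for all genes ordered. Actn2 (0.879) and Mylpf (0.842) stood high among them, and Acta1 (0.264) and Tnnt3 (0.212) did not.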

How the data were processed

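The authors deposited 1 table of TPM values, with gene identifiers, coordinates and lengths. The submitters' processing notes name FastQC 0.11.5, Trimmomatic 0.36, STAR 2.5.3a and featureCounts 1.6.3 with mm10/GRCm38, whereas the extraction text names a human build, HTSeq and RPKM. Mouse identifiers and coordinates, 96.0% of them at their GENCODE M21 position, fit the former. Columns were matched to samples by library name, and the table had 0 columns beyond these samples. Labels do not say that samples are separate animals, so P values measure the spread between these samples.

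TPM multiplied by length was a whole multiple of 1 step (tolerance 0.01) for 100% of values, and this step was taken as 1 read. Intervals on reads are exact and cover counting error only. Libraries were compared on log2(TPM + 1) in genes with at least 1 TPM in at least 3 libraries, using limma 3.58.1 (trend and robust) in R 4.3.3, with Benjamini-Hochberg adjustment over all genes and a threshold of 0.05. Correlations used 100000 permutations, 2-sided, in SciPy 1.17.1. Scripts were tested on simulated data.

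The genes and lists were chosen with earlier results of these data known. Named genes were the 7 of the family, up to 3 called genes per direction with the largest moderated statistic in the supply and phosphotransfer lists, the most abundant tumor genes of marker lists where a result turned on them, neighbours within 100 kb, and the 5 most like Ckm and Ckb. Individual muscle genes of MP tumors 1, 3, 6, 7, 8 and 10, markers below the filter in every tumor and the ADP/ATP carriers were named after their values were seen. Alternatives varied the pseudocount, filter, scaling, limma options, voom, library set, replicate block and single libraries. Leaving out MP tumors 1 and 8 was added after seeing the data. Protein sequences were not used here, and 2 called genes of the supply list are counted but not reported here by name.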

Additional observations from a re-analysis of the deposited data

Results flagged for a closer look

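In 7 of 21 measures over the 10 MP tumors, 1 tumor lay far from the others (Dixon's gap over range, 95% critical value), and chance gives about 1 in 20 for normally distributed values. These were linear TPM values and each of the 7 was a highest tumor, so their number does not measure an excess over chance. Ckmt2 was 17.1 TPM in MP tumor 1, against 3.46 TPM in the next tumor. The same tumor held the highest summed TPM of the skeletal muscle list, 3037 against 445, and of the myogenic regulators, 81.0 against 6.16. Gatm was 625 TPM in MP tumor 5, against 95.8 TPM in the next tumor, and that tumor also had the highest summed TPM of the smooth muscle list, 2464 against 878, with 1853 to 2215 in WT ovaries. Ckmt1 was 0.773 TPM in MP tumor 10, from 3 reads, against 0.301 TPM in the next. The oocyte list summed to 32.1 TPM in MP tumor 4, against 16.0 TPM. Their causes were not tested.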

How the results depend on the processing

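Ckm kept its direction under 23 alternatives, with log2 differences of 4.39 to 8.60, and so did Ckb (-2.41 to -1.40), Ckmt1 where tested (-3.88 to -0.98) and Ckmt2 where tested (0.72 to 3.35). Of the 6 other family genes, 1 was called lower, and 2 were by limma-voom, within library set 1 and without MP tumors 1 and 8, 3 with library set as covariate and 3 with the replicate block, and 0 to 2 when 1 library was left out. Of all genes, 14.3% were called lower, and 23.4%, 62.4%, 10.0%, 49.4% and 56.7% by voom, within set 1, without MP tumors 1 and 8, with the covariate and with the block. Called higher were 2.51%, and 7.39%, 11.02%, 10.9%, 6.84%, 5.17% and 6.29% with median-of-ratios, quantile, voom, set 1, covariate and block. Replicate numbers are shared by WT ovaries and MP tumors 1 to 3, and their deviations correlated at -0.0488, 0.0190 and -0.0367. Pairs with different numbers correlated at -0.115 to 0.147. Correlations between tissues this different cannot show whether samples of the same number are related, and the labels do not say. With the replicate block, Ckmt1, Slc6a8 and Gamt were called (limma adjusted P = 0.000107, 5.74e-06 and 0.0281), and calls over all genes went from 433 higher and 2463 lower to 1087 and 9803.

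Supply genes called higher (3 in the report) numbered 5 with median-of-ratios scaling, 7 with quantile normalization, 7 with voom, 5 within set 1 and 0 to 5 without 1 library, and those called lower (1) numbered 8 within set 1, 6 with the covariate, 8 with the replicate block and 0 to 1 without 1 library. Phosphotransfer genes called higher (1) numbered 4, 6, 7, 5, 3 and 5 with median-of-ratios, quantile, voom, set 1, covariate and replicate block, and 1 to 3 without 1 library. Those called lower (1) numbered 0 with a pseudocount of 0.1, 2 without filter, 0 with median-of-ratios, 3 within set 1, 2 with the covariate, 2 with the replicate block and 0 to 1 without 1 library. Over all genes, calls without 1 WT ovary were 65 to 107 higher and 604 to 683 lower.

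Between library sets, 1 family gene was called lower, 0 with quantile normalization and 1 to 2 without 1 library. Differences without 1 library ranged from -0.95 to 2.41 for Ckm, -0.84 to 1.18 for Ckb, -0.27 to 0.63 for Gatm and -1.94 to -0.29 for Gamt. Gatm between tumors and ovaries was 0.511, 0.138 and 0.0614 with median-of-ratios, quantile and voom, and -0.57 to 0.0344 without 1 library. Pairs of Ckm past the threshold numbered 0 to 1 without 1 tumor, and r ranged from -0.118 to 0.353 with Ckb, -0.445 to 0.0749 with Ckmt1, -0.666 to 0.117 with Gatm, 0.276 to 0.584 with Gamt and -0.389 to 0.0730 with Slc6a8. Without MP tumors 1 and 8, r was -0.133 with Ckb and 0.0668 with Slc6a8. Causes were not tested. Depth limits low values, since 3 reads in a gene of 1 kb were worth up to 2.37 TPM in a tumor.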
